A study of Mus musculus with 8 samples.

Results

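The 8 genes described here control phosphate and its release at sites of mineralization, and they were followed through the transcriptome of mouse molars: Alpl, Phospho1, Phex, Enpp1, Ank, Bglap, Smpd3 and Fam20c. They were chosen by name, for their roles, but with earlier results of these data known. All 8 were found among the 43629 Ensembl genes in the deposited tables and all 8 were among the 17129 genes tested. The study removed the Notch ligand Jagged1 from the epithelium and asked how this alters the developing tooth. Lower molars were collected at E18.5 from 4 K14Cre;Jagged1fl/fl embryos, named K14J26, K14J28, K14J29 and K14J30, in which Cre under the Keratin 14 promoter directs the deletion of Jagged1 to epithelial cells, and from 4 littermates named J3, J5, J6 and J7. The littermates, called WT here as in the study, are labelled Jagged1 fl/fl, so both groups carry the floxed alleles and only the mutants are labelled with Cre. The molars of both sides were combined for each embryo, so each value describes epithelium and mesenchyme together, and the sex and litter of the embryos are not given in the sources used here. In such a bulk sample, a change in the number of cells of a type and a change in the RNA per cell cannot be told apart. By Xist, the RNA of the inactive X chromosome, only the mutants K14J28 and K14J29 appeared female. Sex was thus not balanced between the groups, and the tests had no term for it.

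Mineral forms where phosphate is plentiful and pyrophosphate, which blocks crystal growth, is scarce. Alpl, the tissue-nonspecific alkaline phosphatase, cleaves pyrophosphate to phosphate, whereas Enpp1 makes pyrophosphate from nucleotides outside the cell and Ank supplies it from inside. Smpd3, a neutral sphingomyelinase, frees phosphocholine from membrane lipid, and Phospho1 frees phosphate from phosphocholine inside matrix vesicles. Phex is a membrane peptidase whose loss causes phosphate wasting, Fam20c is the Golgi kinase that phosphorylates secreted matrix proteins, and Bglap is osteocalcin, a Gla protein of bone and dentin that binds mineral.

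Reads of Bglap can be mistaken for those of a neighbouring copy, Bglap2, and the coding sequences of both are shown because they show which reads of Bglap, the gene with the largest change of the 8, can be told from those of the copy. Bglap (ENSMUSG00000074483) lies on chromosome 3 from 88383501 to 88384464 of GRCm38, on the minus strand, and its coding part runs from 88383635 to 88384415. The coding part of Bglap2 runs from 88377870 to 88378650 on the same strand. Both hold 288 bases with the stop codon, and they differ at 4 positions (98.6% identical), which are in capitals below, 5′ to 3′, from the GENCODE M21 transcripts.
Bglap coding sequence: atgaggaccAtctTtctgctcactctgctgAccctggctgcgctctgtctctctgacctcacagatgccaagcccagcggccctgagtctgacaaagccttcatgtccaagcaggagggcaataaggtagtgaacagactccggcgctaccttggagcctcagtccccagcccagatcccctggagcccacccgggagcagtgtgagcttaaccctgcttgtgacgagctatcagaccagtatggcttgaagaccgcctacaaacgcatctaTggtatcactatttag
Bglap2 coding sequence: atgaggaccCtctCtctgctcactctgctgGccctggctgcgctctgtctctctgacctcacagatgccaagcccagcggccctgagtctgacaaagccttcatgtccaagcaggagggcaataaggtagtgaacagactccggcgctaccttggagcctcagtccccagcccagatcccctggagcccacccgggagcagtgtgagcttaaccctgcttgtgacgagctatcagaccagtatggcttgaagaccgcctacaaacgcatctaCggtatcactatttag
The longest stretch without a difference spans 241 bases. Over the whole of the first transcript listed for each gene, 152 of the 321 windows of 120 bases in Bglap (47.4%), the length of a full trimmed read, are also present in Bglap2, and none is present in the third copy, Bglap3. The Bglap transcript used has 440 bases, against 618 in all exons of the gene, so the share can differ for other transcripts. A read from such a window fits Bglap and Bglap2 equally well.

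Sequences just upstream of the start site were taken from RefSeq on GRCm38.p6, which held 7 of the 8 genes; Smpd3 had no entry. The 250 bases before the start are shown for the gene with the largest rise, for the gene that fell and for the one with a match to the core motif of Rbpj, the DNA-binding partner of Notch. Short motifs, 5 in number, were searched on both strands, and matches are in capitals: TGTGGT (the RUNX core), GGGCGG (the GC box), TATAAA (the TATA box), TGGGAA (the Rbpj core) and TAATTA (a homeodomain site). No match to one motif overlapped a match to another in these windows.
Bglap, chr3:88384467-88384716, minus strand: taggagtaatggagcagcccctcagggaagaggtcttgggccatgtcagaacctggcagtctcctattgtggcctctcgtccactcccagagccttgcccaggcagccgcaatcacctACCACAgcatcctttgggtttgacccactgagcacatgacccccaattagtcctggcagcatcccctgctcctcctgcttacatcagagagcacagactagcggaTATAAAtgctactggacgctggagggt
Enpp1, chr10:24712160-24712409, minus strand: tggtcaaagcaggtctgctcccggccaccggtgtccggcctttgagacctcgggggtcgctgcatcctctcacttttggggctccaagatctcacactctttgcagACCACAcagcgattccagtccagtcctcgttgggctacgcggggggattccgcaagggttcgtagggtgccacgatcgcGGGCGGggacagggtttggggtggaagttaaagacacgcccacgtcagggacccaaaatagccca
Fam20c, chr5:138754831-138755080, plus strand: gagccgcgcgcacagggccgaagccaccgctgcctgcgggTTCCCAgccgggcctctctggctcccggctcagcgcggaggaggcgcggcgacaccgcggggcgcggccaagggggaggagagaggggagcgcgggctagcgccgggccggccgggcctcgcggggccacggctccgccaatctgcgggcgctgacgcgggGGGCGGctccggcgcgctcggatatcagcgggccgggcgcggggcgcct
The window of Bglap held a RUNX core 132 bases and a TATA box 27 bases before the start. That of Enpp1 held a RUNX core at 144 bases and a GC box at 65 bases, and that of Fam20c an Rbpj core at 210 bases and a GC box at 49 bases. The RefSeq start of Fam20c lies downstream of its GENCODE start (138754514), so this window falls inside the gene as placed below. Among all 32851 windows of this length, 14.05% held a RUNX core, 32.74% a GC box, 12.37% a TATA box, 21.59% an Rbpj core and 4.84% the homeodomain site. None of the 5 motifs was found in the window of Phex.

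Library totals ran from 17327224 to 29792467 counted reads, and at these depths 3 counts correspond to 0.0998 to 0.166 CPM (the count of a gene relative to the TMM-scaled size of its library). The scaling factor was 0.843 in K14J26 and 0.969 to 1.04 in the other 7 embryos. The deleted gene, Jag1, ranged from 95.2 to 104 CPM in WT and from 34.0 to 57.1 CPM in mutant molars, and its log2 fold change was -1.19 (SE 0.14, adjusted p = 0.00517, quasi-likelihood test of edgeR, Benjamini-Hochberg adjusted over all tested genes). Markers of several cell types moved with the groups. The ameloblast markers summed to 711 to 3423 CPM in WT and 3959 to 114747 CPM in mutant molars, and 5 of the 6 tested were higher. The odontoblast markers summed to 6265 to 11735 CPM and 11329 to 35162 CPM, with 4 of 5 higher, whereas 4 of the 5 dental mesenchyme markers were lower. The osteoblast and osteocyte markers summed to 339 to 411 CPM in WT and 395 to 696 CPM in mutants, so the groups overlapped. Of these, 3 of 7 were higher, Bglap2 among them. The 696 CPM was that of K14J28, where Ibsp, which did not pass, had 448 CPM. Of the osteoclast markers, 0 of 7 passed by edgeR or DESeq2, and 1 had an unadjusted p under 0.05; their sum reached 1877 CPM in K14J28 and lay between 310 and 705 CPM in the other embryos. The dental epithelium markers summed to 4621 to 5294 CPM in WT and 5500 to 7932 CPM in mutants, a sum to which Krt5 contributed most. Krt14 was the 1 of 7 that edgeR called higher; DESeq2 placed 3 higher and 1 lower, the latter Epcam (log2 fold change -0.51), and an unadjusted p under 0.05 held for 4 higher and 1 lower. The skeletal muscle markers summed to 403 CPM in J6 and 206 CPM in J7 and to at most 19.9 CPM elsewhere, with 1 of 8 lower in edgeR, 6 of 8 lower in DESeq2 and 7 of 8 lower at an unadjusted p under 0.05. No gene of these lists was at 0 in all embryos. The part of these cell types in the values below was not tested.

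In the edgeR test, 4 of the 8 genes rose in the mutant molars (Bglap, Phex, Fam20c and Phospho1), 1 fell (Enpp1) and 3 did not pass (Ank, Alpl and Smpd3). Over all tested genes, 9.52% rose and 6.61% fell at an adjusted p under 0.05, 16.1% in both directions together. That balance depended on the scaling: 1631 higher and 1133 lower genes became 1363 and 1448 with upper-quartile scaling and 855 and 1060 by library size only, but no member changed its sign. The 4 higher members became 0 without J3, without J7 or without K14J29, and 1 without J5. In those fits 420 to 839 of all tested genes passed in either direction, against 2764 with all embryos. With all embryos, the median log2 fold change was 0.68 for the 8 genes and 0.01 for all tested genes. By the criteria of the study, an unadjusted p of 0.05 or less and a fold change of 0.5 or more, which its volcano plot puts on the log2 scale for both directions, 5 of the 8 passed, against 14.2% of all tested genes. With an absolute log2 fold change of at least 1 instead, 3 of the 8 passed (Bglap, Phex and Fam20c), against 5.06% of all tested genes. By the criteria of the study Ank entered and Enpp1 did not, because its fall was smaller than the fold threshold. Both groups kept apart, embryo by embryo, for 4 of the 8 (Bglap, Phex, Phospho1 and Enpp1), which was also the case for 24.2% of all tested genes.

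Alpl (ENSMUSG00000028766, chromosome 4 from 137741733 to 137796384, minus strand), the phosphatase that removes pyrophosphate, was the most abundant of the 8 per length of transcript in WT molars. It had 424, 519, 535 and 445 CPM in J3, J5, J6 and J7, and 625, 438, 547 and 603 CPM in K14J26, K14J28, K14J29 and K14J30. The groups overlapped, because K14J28 lay below 3 of the 4 WT embryos. The mean rose from 481 ± 54.1 to 553 ± 83.7 CPM (SD, n = 4 each), and the log2 fold change of 0.20 did not pass the test (SE 0.12, adjusted p = 0.265, quasi-likelihood test of edgeR). It passed in none of the 18 alternatives either, and its log2 fold change stayed between 0.09 and 0.35 in them.

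Enpp1 (ENSMUSG00000037370, chromosome 10 from 24637914 to 24712159, minus strand), the enzyme that generates pyrophosphate, was the only one of the 8 whose fall passed the test. Its levels were 132, 139, 137 and 145 CPM in the WT embryos and 93.8, 112, 112 and 111 CPM in the mutants, in the order given above. All 4 mutants lay below all 4 WT embryos, 3 of the mutants were nearly level, and K14J26 was the lowest. The fall was 22.4% (log2 fold change -0.37, SE 0.07, adjusted p = 0.0159, quasi-likelihood test of edgeR). The adjusted p was under 0.05 with 7 of the 8 embryos left out in turn, and was 0.0555 without J7. Without J6 and J7 together the log2 fold change was -0.34 (adjusted p = 0.158, quasi-likelihood test of edgeR).

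Ank (ENSMUSG00000022265, chromosome 15 from 27466677 to 27594909, plus strand), which supplies pyrophosphate to the outside of the cell, pointed the other way from Enpp1. WT embryos had 104, 125, 142 and 100 CPM, and the mutants had 266, 128, 214 and 157 CPM. K14J28 lay within the WT range and the other 3 mutants lay above it. The log2 fold change was 0.70 (SE 0.22, adjusted p = 0.0555, quasi-likelihood test of edgeR), so it missed the adjusted threshold. The adjusted p was 0.0133 without K14J28, 0.0448 without the count filter and 0.0110 in DESeq2. In the other 7 fits that left out 1 embryo it was above 0.05, up to 0.144 without J7, and without K14J26 the log2 fold change was 0.50 (adjusted p = 0.0734).

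Ratios of counts within an embryo do not depend on the scaling of the libraries, and are given as a description. The Alpl to Enpp1 ratio was 3.21, 3.74, 3.89 and 3.08 in WT and 6.66, 3.93, 4.87 and 5.42 in mutant molars. It was higher in each mutant than in each WT embryo, though K14J28 exceeded J6 by little, and the mean log2 ratio went from 1.79 ± 0.16 to 2.36 ± 0.32 (SD, n = 4 each). The Alpl to Ank ratio went from 4.09, 4.14, 3.76 and 4.43 to 2.35, 3.42, 2.55 and 3.85, and here the groups overlapped because K14J30 lay above J6. Thus the phosphatase stood higher against one source of pyrophosphate and, on average, lower against the other.

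**Figure D1:**
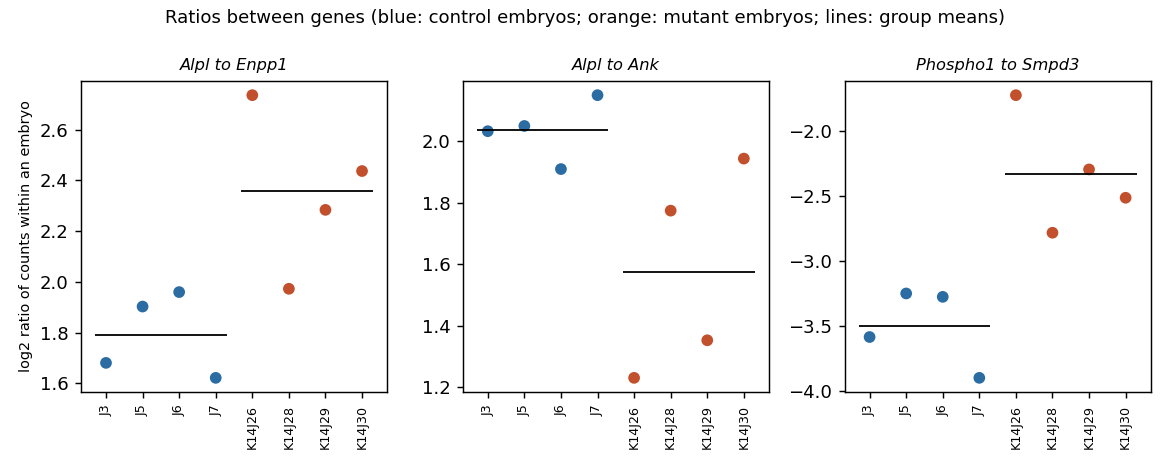
Log2 ratio of counts within each embryo (vertical axis) for Alpl to Enpp1, Alpl to Ank and Phospho1 to Smpd3, with lines at the group means. WT (blue) and mutant (orange) embryos separate for the first and the third ratio and overlap for Alpl to Ank.

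Phospho1 (ENSMUSG00000050860, chromosome 11 from 95824499 to 95832140, plus strand), the phosphatase of matrix vesicles, had 29.7, 37.5, 42.7 and 27.0 CPM in WT molars. In the mutants it had 43.4, 45.2, 58.6 and 70.4 CPM. All mutants exceeded all WT embryos, by under 1 CPM between J6 and K14J26, and K14J30 was the highest. The rise was 1.59-fold (log2 fold change 0.67, SE 0.19, adjusted p = 0.0418, quasi-likelihood test of edgeR). The log2 fold change stayed between 0.52 and 0.79 with any embryo left out, while the adjusted p was 0.111 without J3, 0.0846 without J5, 0.117 without J7, 0.107 without K14J29 and 0.0810 without K14J30. With upper-quartile scaling it was 0.0535, and with library size only 0.0931. Without K14J28 and K14J29 together, the mutants with high Xist, the log2 fold change was 0.73 (adjusted p = 0.0752, quasi-likelihood test of edgeR). Without J6 and J7 together it was 0.69 (adjusted p = 0.171). In the annotation, 1818 of its 2029 exon bases (89.6%) also lie in exons of Zfp652 on the same strand, and 1708 (84.2%) in exons of Abi3 on the opposite strand. Zfp652 averaged 152 CPM with a log2 fold change of 0.24 (adjusted p = 0.0479, quasi-likelihood test of edgeR), and Abi3 averaged 3.74 CPM. How the authors assigned reads on shared exons is not given in the sources used here, so both the level and the fold change of Phospho1 are uncertain.

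Smpd3 (ENSMUSG00000031906, chromosome 8 from 106252548 to 106337988, minus strand), the step before Phospho1, was the second most abundant per length in WT molars. WT values were 356, 357, 414 and 403 CPM. The mutants spread from 143 CPM in K14J26 over 288 in K14J29 and 311 in K14J28 to 402 CPM in K14J30. In 3 mutants the level lay below the WT range and K14J30 lay within it. The log2 fold change of -0.42 did not pass (SE 0.25, adjusted p = 0.259, quasi-likelihood test of edgeR), and without K14J26 it was -0.20 (adjusted p = 0.246). Without K14J30 it was -0.63 (adjusted p = 0.107), which met the criteria of the study (unadjusted p = 0.0283). The Phospho1 to Smpd3 ratio of counts lay between 0.0670 and 0.105 in WT and between 0.145 and 0.302 in mutant molars, without overlap, with the uncertainty of Phospho1 given above. The exons of Smpd3 share 247 bases (4.72% of its exon length) with Prmt7 on the opposite strand, which averaged 37.4 CPM.

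Phex (ENSMUSG00000057457, chromosome X from 157162075 to 157415312, minus strand), the peptidase of phosphate control, had 63.4, 115, 161 and 76.9 CPM in WT molars. In the mutants it had 356, 178, 335 and 234 CPM. All 4 mutants lay above the WT range, with K14J28 the closest to it. The rise was 2.65-fold (log2 fold change 1.40, SE 0.31, adjusted p = 0.0220, quasi-likelihood test of edgeR). The adjusted p was 0.0584 without J3, 0.0577 without J5, 0.0731 without J7 and 0.0697 without K14J29, while the log2 fold change stayed at 1.23 or more with any embryo left out. Phex is X-linked, and Xist, the RNA of the inactive X chromosome, was high only in K14J28 and K14J29 (1930 and 1468 CPM, against at most 1.09 CPM elsewhere). Those 2 embryos were the lowest and the second highest mutant for Phex, and without both of them its log2 fold change was 1.5 (adjusted p = 0.0367). Without J6 and J7 together it was 1.62 (adjusted p = 0.131, quasi-likelihood test of edgeR).

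Bglap, the mineral-binding Gla protein, changed the most. WT molars had 13.5, 18.2, 25.3 and 12.7 CPM, from 244 to 488 counts. The mutants had 201, 31.3, 105 and 73.5 CPM, from 941 to 4174 counts. All mutants exceeded all WT embryos, and they differed among themselves by 6.41-fold, against 1.99-fold in WT. The rise was 5.89-fold (log2 fold change 2.56, SE 0.50, adjusted p = 0.0165, quasi-likelihood test of edgeR). Without K14J26 the log2 fold change was 2.01 (adjusted p = 0.00981), and the adjusted p was 0.0544 without J3, 0.0581 without J7 and 0.0531 without K14J29. Without J6 and J7 together the log2 fold change was 2.69 (adjusted p = 0.146, quasi-likelihood test of edgeR).

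The near copy Bglap2 had 7.20, 8.21, 11.3 and 5.37 CPM in WT and 49.95, 10.5, 33.7 and 25.8 CPM in mutant molars. It rose as well (log2 fold change 1.91, SE 0.42, adjusted p = 0.0217, quasi-likelihood test of edgeR), although K14J28 lay below J6. Bglap3 stayed at or below 0.520 CPM and was not tested. With the counts of all 3 genes summed, the log2 fold change was 2.38 (SE 0.48, adjusted p = 0.0171, quasi-likelihood test of edgeR), a smaller rise than that of Bglap alone and a larger one than that of Bglap2. Of the reads counted on Bglap or Bglap2, Bglap took 65.2%, 68.9%, 69.2% and 70.3% in WT and 80.1%, 74.9%, 75.7% and 74.1% in mutant molars. The Wilson 95% intervals, which cover counting error only, spanned 60.3% to 69.9% in J3, the shallowest, and 79.0% to 81.1% in K14J26. The groups did not overlap, and since the sequences above leave long stretches shared, the shares describe the counted reads only.

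Fam20c (ENSMUSG00000025854, chromosome 5 from 138754514 to 138810077, plus strand), the kinase of secreted phosphoproteins, had 37.9, 45.7, 51.8 and 33.6 CPM in WT molars. The mutants had 194, 48.8, 104 and 83.7 CPM. K14J28 lay within the WT range and the other 3 mutants above it. The rise was 2.55-fold (log2 fold change 1.35, SE 0.36, adjusted p = 0.0357, quasi-likelihood test of edgeR). Without K14J26 the log2 fold change was 0.90 (adjusted p = 0.0278). The adjusted p was 0.0966 without J3, 0.0815 without J5, 0.0596 without J6, 0.103 without J7 and 0.0857 without K14J29, and 0.0540 with edgeR's robust dispersion. Without J6 and J7 together the log2 fold change was 1.36 (adjusted p = 0.199, quasi-likelihood test of edgeR). The study itself shows Fam20c among its example genes from these samples, so its rise here is not independent of that choice.

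**Figure D2:**
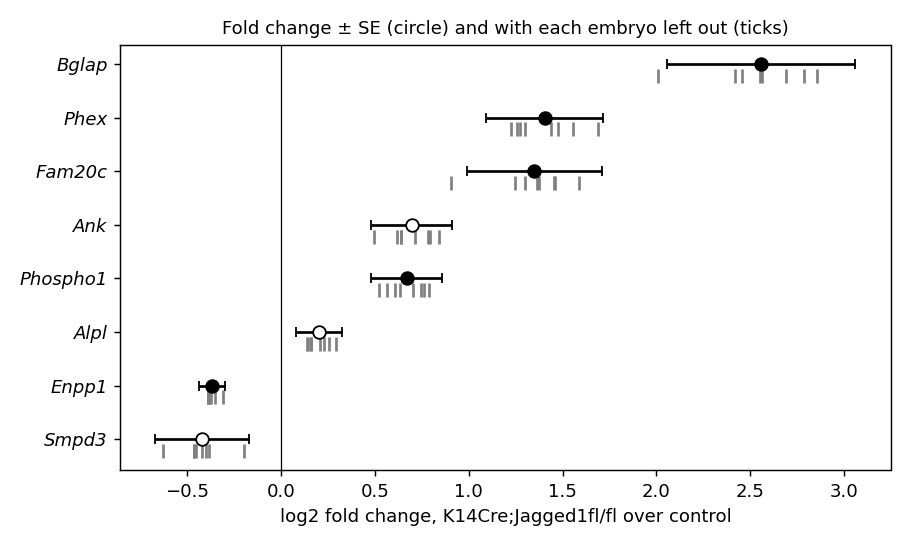
Log2 fold change (horizontal axis, K14Cre;Jagged1fl/fl over WT) of each gene with its standard error, filled where the adjusted p was under 0.05, and grey ticks for the fits that each left out 1 embryo. All ticks of a gene lie on the same side of 0, and those of Bglap span 2.01 to 2.85.

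Levels were compared between genes as CPM per kilobase of exon. In WT molars Alpl stood at 119 (range 105 to 133), Smpd3 at 73.1 (68.1 to 79.1), Ank at 32.7 (27.8 to 39.4) and Bglap at 28.2 (20.6 to 41.0). Below these came Phospho1 at 16.9, Phex at 16.6, Enpp1 at 13.5 and Fam20c at 6.41. Alpl and Smpd3 each stood apart from the next gene, the ranges of Ank and Bglap overlapped, that of Bglap also reached down to those of Phospho1 and Phex, and the ranges of Phospho1, Phex and Enpp1 overlapped, while Fam20c (5.10 to 7.86) lay below all. In the mutants the order became Bglap at 166 (50.7 to 325), Alpl at 137 (109 to 155), Smpd3 at 54.7, Ank at 53.0, Phex at 43.9, Phospho1 at 26.8, Fam20c at 16.4 and Enpp1 at 10.4. There the range of Bglap covered that of Alpl, those of Smpd3, Ank and Phex overlapped, and Enpp1 (9.15 to 10.9) lay within the range of Fam20c. By the means, Bglap went from the fourth place to the first, and Phex and Phospho1, like Fam20c and Enpp1, changed places. The first place of Bglap rested on K14J26, at 325. The places of Bglap and Phospho1 also carry the uncertainty of the sequence and exons they share with Bglap2 and Zfp652.

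The spread between embryos followed a repeated order. J6 was the highest WT embryo for 7 of the 8 genes, and J6 was followed by J5 for 6 (Alpl, Phospho1, Phex, Ank, Bglap and Fam20c). Among mutants, the order K14J26, K14J29, K14J30, K14J28 from high to low was shared by 4 (Phex, Ank, Bglap and Fam20c). Dspp, a dentin matrix gene, had the same mutant order, with 6553, 4697, 2642 and 1801 CPM, and so had Amelx, the main enamel matrix gene, with 60618, 14522, 6672 and 2466 CPM. Smpd3 and Phospho1, in contrast, were highest in K14J30 and lowest in K14J26, and Enpp1 was lowest in K14J26 as well. As the highest value over the lowest, the mutants spread more than WT for 7 of the 8 genes, Phex being the exception (1.99 against 2.54). K14J28 was the lowest mutant for 5 of the 8 genes, Bglap among them. The osteoblast and osteocyte markers were not of 1 kind in that embryo. Ibsp reached 448 CPM and Pth1r 40.8 CPM there, above the other 7 embryos, whereas Bglap2 (10.5 CPM) and Sost (0.266 CPM) were at their lowest among the mutants, and Sp7 (161 CPM) and Ifitm5 (35.2 CPM) lay below K14J29 and K14J30.

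**Figure D3:**
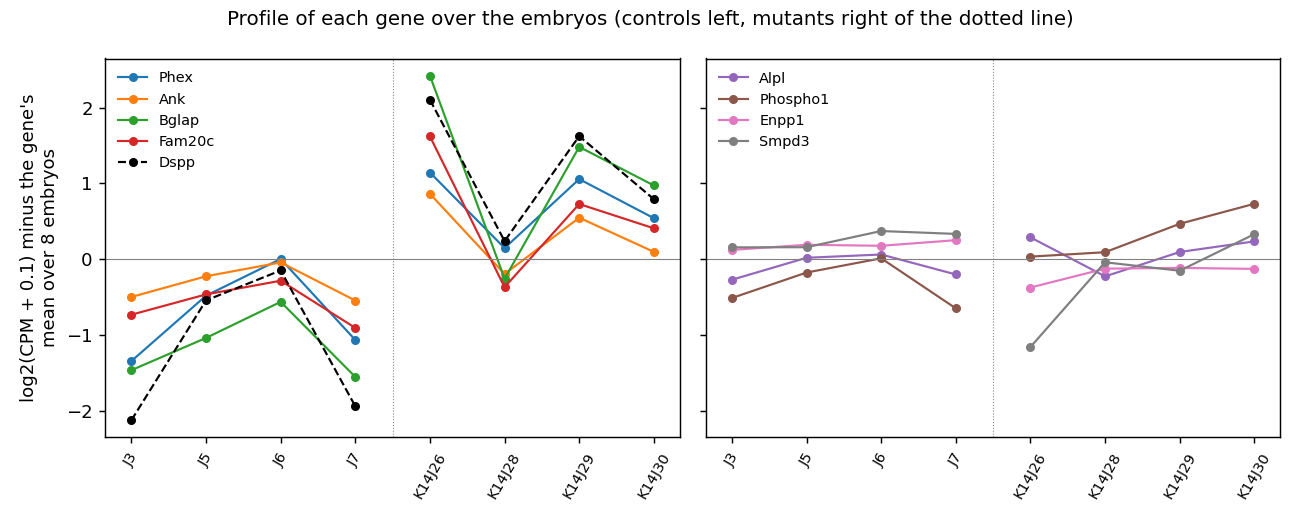
Log2(CPM + 0.1) of each gene minus its mean over the 8 embryos (vertical axis), with WT embryos left and mutants right of the dotted line; lines only join the values of a gene. Among the mutants, Phex, Ank, Bglap and Fam20c share the order of Dspp (dashed), with K14J28 the lowest; among WT embryos these 5 have J6 and then J5 on top, whereas Enpp1 and Smpd3 are lowest in K14J26.

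For each gene, the 3 tested genes with the most similar profile were taken among those with a mean of at least 5 CPM, 11910 in number, by the root mean square difference of the centred log2 values over the 8 embryos. Closest to Alpl were Fuz, Dlx3 and Ndufaf3 (0.04 to 0.08), and Dlx3, a homeobox factor of mineralizing tissues, had 244 to 277 CPM in WT and 229 to 337 CPM in mutant molars. Closest to Ank were Tcp11l2, Ccpg1 and Gm44503 (0.04 to 0.06), of which the last 2 overlap each other. Fam20c was closest to Nipal3, Tcn2 and Cobl (0.07 to 0.11), and Enpp1 to Mapk1ip1l, Elp4 and Map3k8 (0.04 to 0.05). Phex was closest to Apba1, Prkcb and Gm14137 (0.14 to 0.17), and Phospho1 to Stbd1, Sall1 and Steap3 (0.11 to 0.14). Bglap was closest to Stac3, Gm26888 and Mypn (0.16 to 0.20), and Smpd3 to Frmd5, Cdkn3 and Adamts19 (0.09 to 0.13). The profile of Alpl itself deviated from its own mean by 0.20 on this scale and that of Bglap by 1.37, so the distances differ in scale. No other member was among the 3 closest of any of the 8, and between members the smallest distance was 0.31, between Alpl and Ank.

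The pathways around the 8 genes were covered by 8 lists with 75 genes, of which 65 were tested, 13 rose and 6 fell (29.2% of those tested, against the 16.1% of all tested genes given above). The lists were chosen with earlier results of these data known, so the higher share is not independent evidence. Among the other phosphatases, 5 of 7 genes were tested, 1 rose, 1 fell and the median log2 fold change was 0.05. Acp4, an acid phosphatase of enamel formation, was at 3.65 to 12.8 CPM in WT and 12.1 to 391 CPM in mutants (log2 fold change 4.18, SE 1.04, adjusted p = 0.0299, quasi-likelihood test of edgeR). Lhpp, a cytosolic phosphatase, fell by 0.54 on the log2 scale (adjusted p = 0.0433, quasi-likelihood test of edgeR). The pyrophosphatases Ppa1 and Ppa2, which cleave pyrophosphate inside the cell, had log2 fold changes of 0.05 and -0.06 and did not pass.

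In the list for nucleotide and pyrophosphate supply, 1 of 11 tested genes rose and 0 fell (edgeR, median log2 fold change 0.03); DESeq2 placed 2 higher and 0 lower, as did an unadjusted p under 0.05. The gene that rose was Enpp4, a relative of Enpp1 that cleaves dinucleotides, from 6.70 to 7.38 CPM in WT to 9.82 to 12.6 CPM in mutant molars (log2 fold change 0.72, SE 0.11, adjusted p = 0.00862). Its direction was opposite to that of Enpp1. For Enpp5 the log2 fold change was 0.40, with an adjusted p of 0.0509, and the channels Panx1 and Panx3, which release ATP, had -0.09 and -0.14. Panx3 had 50.7 CPM in K14J26 against 92.5 to 131 CPM in the other 7 embryos.

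Of the genes for choline and sphingomyelin, 14 of 15 were tested, 0 rose and 1 fell (edgeR, median log2 fold change 0.08). At an unadjusted p under 0.05, 3 were higher and 3 lower, and DESeq2 placed 2 higher (Smpd1 and Enpp6) and 1 lower. Smpd2, another neutral sphingomyelinase, fell by 0.28 on the log2 scale, from 42.0 to 46.6 CPM to 35.4 to 36.3 CPM (adjusted p = 0.0188, quasi-likelihood test of edgeR). Smpd1, the acid sphingomyelinase, showed 0.51 on the log2 scale (adjusted p = 0.0543) and the mutant order of Phex and Bglap. The choline transporter Slc44a1 stayed between 168 and 178 CPM in all 8 embryos. For Enpp2, which cleaves lysophosphatidylcholine, it was -0.25 (adjusted p = 0.233).

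For phosphate transport and its hormones, 10 of 14 genes were tested, 2 rose and 0 fell (edgeR, median log2 fold change 0.25). DESeq2 placed 3 higher, Slc20a2 among them, and an unadjusted p under 0.05 held for 4, while neither gave a lower gene. Xpr1, the phosphate exporter, had 112 to 130 CPM in WT and 152 to 200 CPM in mutants (log2 fold change 0.51, SE 0.10, adjusted p = 0.0157, quasi-likelihood test of edgeR). Vdr, the vitamin D receptor, had 17.0 to 28.1 CPM and 27.0 to 50.8 CPM (log2 fold change 0.79, SE 0.20, adjusted p = 0.0323). The phosphate importers Slc20a1 and Slc20a2 showed 0.69 and 0.49 on the log2 scale (adjusted p = 0.160 and 0.0906). Slc20a1 reached 253 CPM in K14J26 and 125 CPM in K14J29, while K14J28 and K14J30, at 84.1 and 81.7 CPM, lay within the WT range of 80.8 to 85.6 CPM. Fgfr1 showed 0.25 (adjusted p = 0.151). Fgf23 and its co-receptor Kl, at no more than 0.412 CPM in any embryo, were not tested.

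The other secretory pathway kinases numbered 4, of which 2 rose and 1 fell (edgeR, median log2 fold change 0.16). Fam20a, the partner that activates Fam20c in enamel formation, had 27.97 to 50.4 CPM in WT and 45.7 to 229 CPM in mutants (log2 fold change 1.53, SE 0.43, adjusted p = 0.0410). Fam20b, a xylose kinase, rose by 0.25 (adjusted p = 0.0390), and Fjx1 fell by 0.67 on the log2 scale (adjusted p = 0.00517, quasi-likelihood test of edgeR). Pkdcc, a kinase of extracellular proteins, had a log2 fold change of 0.07. Of the secreted phosphoproteins that Fam20c acts on, 4 of 8 tested genes rose and 0 fell in edgeR, in DESeq2 and at an unadjusted p under 0.05, with a median log2 fold change of 1.45. These were Dspp (2.31), Amelx (4.17), Ambn (5.32) and Enam (5.61), the dentin and enamel matrix genes, with adjusted p between 0.0245 and 0.0299 in edgeR's test. Dmp1, Ibsp, Spp1 and Mepe, which bone shares with dentin, did not pass, with log2 fold changes of 0.59, 0.34, -0.26 and -1.64. The study named most genes of this list from these samples, so its count is not independent evidence. The paper also reports higher Amelx, Ambn, Dspp and Dmp1 by RT-PCR, and it lists Dmp1 as upregulated in its RNA sequencing.

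Among Gla proteins and the vitamin K cycle, 6 of 8 genes were tested, 2 rose and 1 fell (edgeR, median log2 fold change 0.31). DESeq2 placed 3 higher and 2 lower, with Mgp and Pros1 in addition, as did an unadjusted p under 0.05. Beside Bglap2, Vkorc1l1, an enzyme that recycles vitamin K, rose by 0.33 (adjusted p = 0.0245), and Gas6, a Gla ligand of receptor kinases, fell by 0.27 on the log2 scale (adjusted p = 0.0478, quasi-likelihood test of edgeR). Vkorc1 showed 0.28 on the log2 scale (adjusted p = 0.223), and Ggcx, the carboxylase of the cycle, is listed at 0 counts in all 8 embryos; since most cells use this gene, the 0 is not read as absent expression. Mgp, an inhibitor of calcification, had 7.78 to 14.1 CPM in WT and 12.5 to 61.9 CPM in mutants (log2 fold change 1.39); it missed the adjusted threshold of edgeR (adjusted p = 0.0698) and passed in DESeq2 and by the criteria of the study. All 8 transcription factors of mineralizing cells were tested, 1 rose and 2 fell (edgeR, median log2 fold change 0.02). Sp7, required for osteoblasts and odontoblasts, rose by 0.38 (adjusted p = 0.0390), while Runx2 fell by 0.29 and Dlx5 fell by 0.32 on the log2 scale (adjusted p = 0.0436 and 0.0283, quasi-likelihood test of edgeR). Dlx3, Msx2 and Atf4, the most abundant per length, had log2 fold changes of 0.19, -0.16 and 0.06 and did not pass. The levels of Runx2, at 102 to 127 CPM in WT and 87.3 to 102 CPM in mutants, thus went the other way from Bglap.

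**Figure D4:**
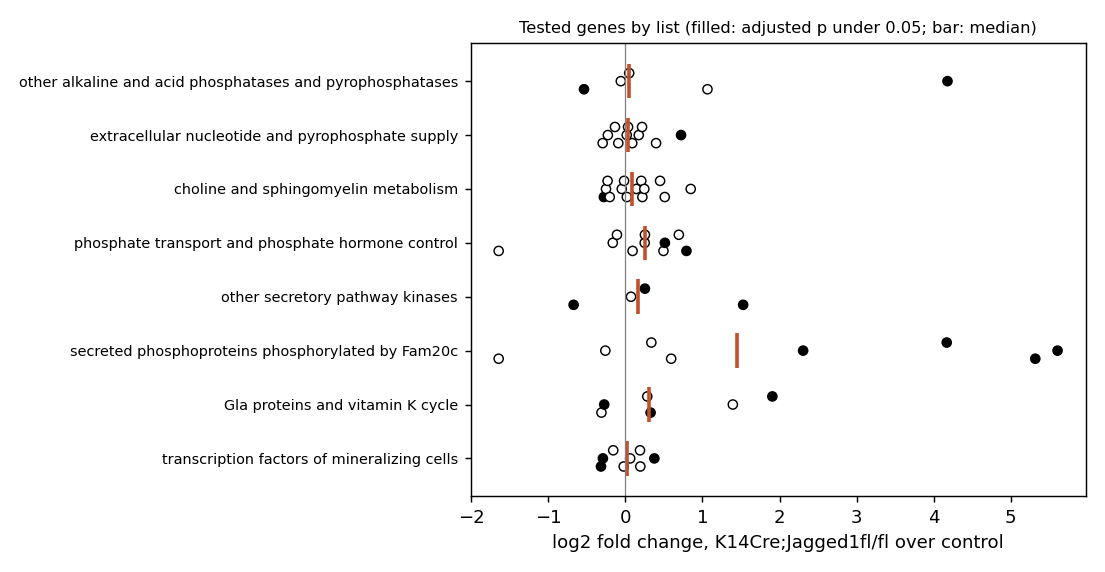
Log2 fold change (horizontal axis, K14Cre;Jagged1fl/fl over WT) of the tested genes in each of the 8 lists, filled where the adjusted p was under 0.05, with a bar at the list's median. The medians lie between 0.02 and 0.31 except that of the secreted phosphoproteins, at 1.45.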

How the data were processed

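RNA of lower molars was sequenced in 2 groups of 4 embryos each. The authors trimmed the reads, mapped them to GRCm38 using STAR and deposited, per embryo, 1 table of raw counts by gene; the submitters' processing notes name featureCounts for the counting and the paper GenomicRanges. The library kit does not mark strand. From the deposited counts, genes reaching 10 counts in 2 or more embryos of either group were kept, scaled by TMM and tested with edgeR 4.0.16 in R 4.3.3 (glmQLFit, glmQLFTest, no covariates), with Benjamini-Hochberg adjustment over all 17129 genes; SE is that of the log2 fold change. Symbols, positions and exon lengths came from GENCODE M21, which holds 42548 of the 43629 identifiers.

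The members, lists and tests were chosen with earlier results of these data known. Named genes were the 8 members, list genes with an adjusted p under 0.05, the 3 most abundant genes per list, the 3 nearest profiles per member, and Jag1; other list and marker genes were picked with their values known. No embryos of 1 group agreed within sampling noise. Nothing in the labels says which embryos share a litter, so p-values measure the spread between these embryos. Alternatives were other scalings, DESeq2 1.42.0, a robust dispersion, other count filters, other thresholds and embryos left out. Precision is limited more by 4 embryos per group than by depth.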

Additional observations from a re-analysis of the deposited data

Results flagged for a closer look

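Within groups of 4 embryos, a value was marked when its gap to the nearest other embryo took a larger share of the group's range on the log2 scale than Dixon's 95% limit for 4 values. Chance marks about 1 in 20 groups, and 4 of the 86 groups examined (43 genes) were marked. Enpp1 stood at 93.8 CPM in K14J26, below the other 3 mutants at 111 to 112 CPM. Its fall in the mutants held without that embryo, with a log2 fold change of -0.31 (adjusted p = 0.00793, quasi-likelihood test of edgeR). The pyrophosphatase Ppa1 stood at 69.0 CPM in J3, above the other WT embryos at 59.5 to 61.0 CPM. Fjx1 stood at 25.7 CPM in K14J28, above the other mutants at 21.2 to 21.6 CPM. Vkorc1l1 stood at 38.2 CPM in J3, below the other WT embryos at 40.4 to 40.7 CPM.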

How the results depend on the processing

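No sign changed in the 145 fits of single genes under the alternatives: 114 kept their side of the adjusted threshold, 27 lost it and 4, those of Ank, gained it. With 1 embryo left out, 0 to 5 of the 8 genes were called higher, 0 to 1 lower and 4 to 6 passed the criteria of the study, while over all tested genes 420 to 4322 passed the adjusted threshold. In the same fits, 11.2% to 17.9% of all tested genes passed the criteria of the study. No member was higher at an adjusted p under 0.05 without J3, without J7 or without K14J29, and 1 was without J5, although over all fits that left out 1 embryo the log2 fold changes stayed at 2.01 to 2.85 for Bglap, 1.23 to 1.69 for Phex, 0.90 to 1.58 for Fam20c and 0.52 to 0.79 for Phospho1. Without J6 and J7 together, 0 members were higher and 0 lower at an adjusted p under 0.05, but only 7 of all tested genes passed in that fit of 2 against 4 embryos, 5 members passed the criteria of the study against 10.5% of all tested genes, and the log2 fold changes were 2.69 for Bglap, 1.62 for Phex, 1.36 for Fam20c, 0.69 for Phospho1 and -0.34 for Enpp1. With an absolute log2 fold change of at least 1, 3 members passed them (Bglap, Phex and Fam20c), against 5.06% of all tested genes. Library size alone moved the median of all tested genes to -0.09, and the calls went from 59.0% higher to 44.6%, and to 48.5% with upper-quartile scaling. Without K14J28 and K14J29 together, the mutants with high Xist, 4 members were higher and 1 lower at an adjusted p under 0.05, while 2147 of all tested genes passed. Ank passed in that fit and Phospho1 did not. No paired analysis was possible because the embryo numbers of the 2 groups are not shared.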
